A study of Canis lupus familiaris with 6 samples.

Results

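Voltage-gated ion channels and the subunits that modulate them were examined in left ventricular tissue from Great Danes with cardiomyopathy. The members were all probe sets of a canine Affymetrix array that the array annotation gives exactly 1 gene symbol beginning with KCN, CACN, or SCN plus a digit, or equal to that of an HCN gene, DPP6 or FGF13. This gave 189 probe sets for 115 genes, of 42860 probe sets and 15115 genes tested in all. By class these were 80 potassium channel genes (with DPP6), 10 sodium channel genes (with FGF13), 22 calcium channel genes and 3 HCN genes, and 75 of the 115 genes had a single probe set. The symbol rule also takes in inward rectifiers and tandem-pore channels, which have no classical voltage sensor, and calcium- and sodium-activated channels.

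The affected group held 3 Great Danes labelled as DCM, a female of 9 years (affected 1) and males of 7 years (affected 2 and affected 3). The control group held a male Labrador retriever of 12 years (control 1), a female St. Bernard of 10 years (control 2) and a male Greater Swiss Mountain dog of 4 years (control 3). Each dog gave 1 array, the labels name no drug or allele, and breed and disease cannot be told apart. The values are on the log2 scale, with every probe set centred so that its median across the 6 arrays is 0. Levels can therefore not be set against each other between genes, and the labelled tissue could not be checked against the level of its markers. A further effect of this centring is that the middle pair of the 6 values of a probe set is equal in size and opposite in sign. A gene's value is the mean of its probe sets, each difference is affected minus control on the log2 scale with limma's moderated standard error (SE), and n = 3 dogs against 3 dogs throughout.

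Ventricular muscle cells fire an action potential that opens with sodium current, passes through an early potassium-driven notch, is held in a plateau by calcium current and ends with potassium currents. The pore-forming subunits carry the current, and small auxiliary proteins set how many pores reach the membrane and how fast they open and close. In failing hearts of dogs and humans the transient outward potassium current is known to be smaller and the action potential longer.

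No channel gene passed the threshold of 0.05 after Benjamini-Hochberg adjustment over all genes. The smallest limma adjusted p among the 115 was 0.322, and 0 of 15115 genes (0%) passed in all. At an unadjusted limma p under 0.05 there were 2 higher channel genes, CACNB3 and KCNK13, where 4.88% of all genes were higher at that level, and 3 lower ones, FGF13, KCNE2 and CACNA1B, where 5.64% were lower. Both counts are smaller than those shares of 115 genes would give. The group means lay at least 1 apart on the log2 scale for 5 channel genes. CACNB3, KCNIP2 and KCNK13 lay above the controls, as 1.68% of all genes did by that much, and DPP6 and FGF13 lay below them, as 0.576% of all genes did.

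Most channel genes varied across the arrays in the pattern of probe sets for tags that no dog expresses. The mean of 17 such tag control probe sets was -0.03, -0.03 and -0.01 on affected 1 to 3 and 0.06, 0.01 and 0.13 on control 1 to 3, a difference of -0.09 with no overlap. Of the 115 channel genes 82 (71.3%) followed this profile at a Pearson correlation over 0.9 across the 6 arrays, where 37.8% of all genes did. The points of such a correlation share the arrays and their background, and it is given as a description. It does not take in the size of a change, and HCN2 and HCN3 followed the tags with ranges of 1.76 and 1.84. With centred values it cannot show whether a gene is expressed. In these 82 genes the difference lay between -0.80 and -0.05 with a median of -0.10. The difference was below 0 for 98 of the 115 channel genes, where it was for 65% of all genes. The groups did not overlap in 88 lower and 2 higher channel genes, where 41.7% and 5.8% of all genes did not overlap, and 79 of the 88 were genes that followed the tags. Such a lack of overlap is thus shared with the unexpressed tags. At the level of probe sets 132 of 189 followed the tags, where 41.8% of all probe sets did. Among the 189 the groups did not overlap in 142 lower and 5 higher ones, where 46.8% and 5.38% of all probe sets did not. After adjustment over all probe sets 0.00233% (1 probe set) passed in limma, and it was not of a channel gene. The 33 genes that did not follow the tags had a median difference of 0.01, from -2.93 to 1.57.

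The arrays were not alike in other ways. Spiked bacterial control transcripts had a median of 0.56, -0.20 and 2.39 on affected 1 to 3 and 0.01, -0.14 and -0.06 on control 1 to 3, so affected 1 and affected 3 stood apart. The 3' minus 5' difference of control probe sets, which is higher in degraded RNA, was averaged over beta-actin and GAPDH. It was 0.17, -0.02 and 0.27 on affected 1 to 3 and 0.02, 0.13 and -0.24 on control 1 to 3. These transcripts were not alike. On affected 1 to 3 beta-actin had 0.31, -0.18 and 0.58, and GAPDH 0.02, 0.14 and -0.03. On control 1 to 3 beta-actin had 0.08, 0.11 and -0.34, and GAPDH -0.04, 0.15 and -0.14. Values below -1 were found for 1683 probe sets on control 3 and for 161 to 510 on each of the others. For 87 of the 115 channel genes the value farthest from 0 was that of control 3, as it was for 55.2% of all genes.

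The class comparison showed small negative medians for potassium and calcium channels and a larger one for sodium channels. The median difference was -0.10 for 80 potassium channel genes, -0.21 for 10 sodium channel genes, -0.10 for 22 calcium channel genes and -0.72 for 3 HCN genes, beside -0.07 for all genes. On affected 1 to 3 the sodium class median was -0.05, -0.06 and -0.03, against 0.14, 0.02 and 0.30 on control 1 to 3. The potassium class had -0.03, -0.03 and -0.01 on affected 1 to 3, against 0.05, 0.01 and 0.14 on control 1 to 3, nearly the values of the tags themselves. Without control 3 the medians were -0.06 for potassium, -0.12 for sodium, -0.06 for calcium and -0.25 for HCN genes. After quantile normalization they were -0.02, -0.17, -0.02 and -0.77, with -0.01 for all genes, and after centring each array on its median -0.03, -0.13, -0.03 and -0.65, with 0.00 for all genes. Genes that followed the tags made up 70% of the potassium, 80% of the sodium and 68.2% of the calcium class and all 3 HCN genes.

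**Figure D1:**
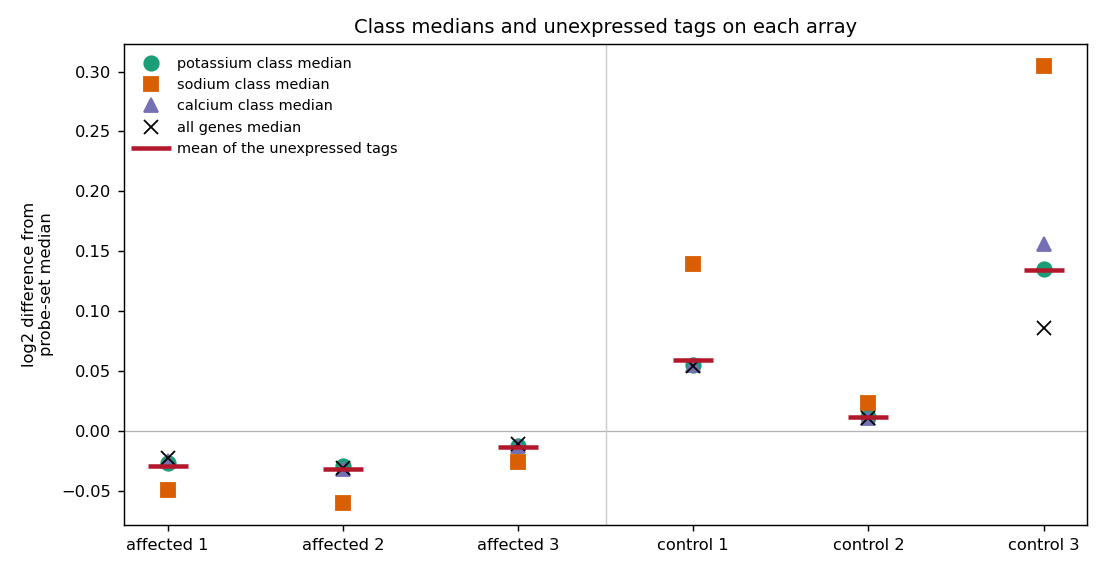
Median log2 difference from the probe-set median (y axis) of potassium, sodium and calcium channel genes and of all genes on each array (x axis), with the mean of the 17 unexpressed tags as a red bar. The potassium class lies close to the tags on all 6 arrays, and the sodium class departs farthest on control 3, at 0.30.

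**Figure D2:**
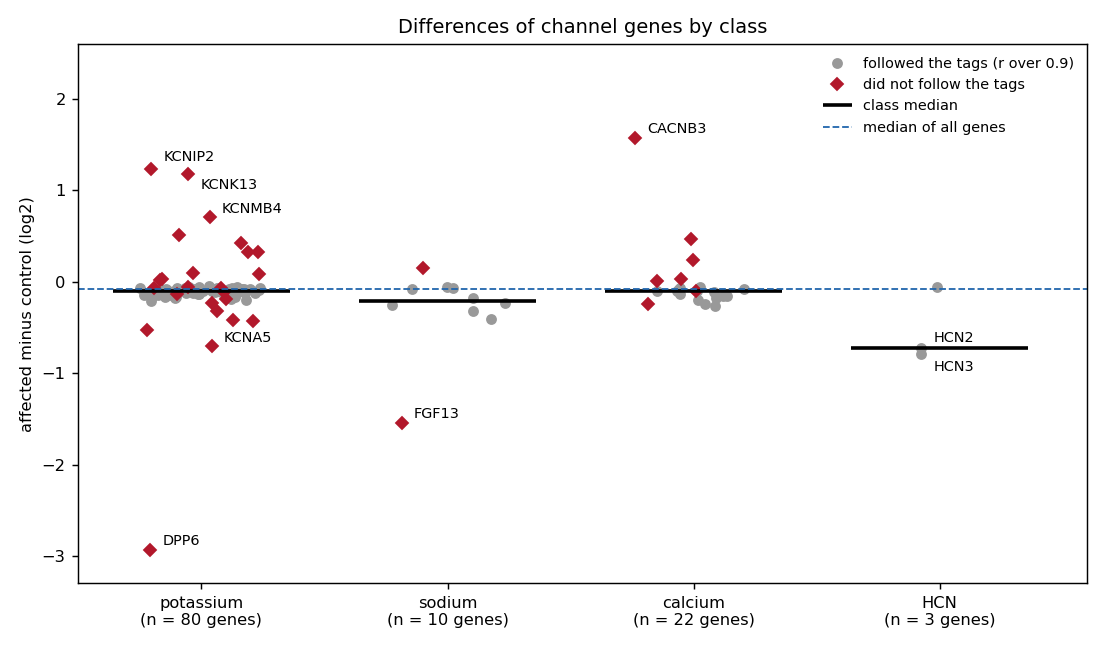
Affected minus control on the log2 scale (y axis) for each of the 115 channel genes by class (x axis), with class medians as black bars and the median of all genes as a dashed line. Genes that followed the tags are grey circles, most of them near their median of -0.10 and the lowest being HCN3 at -0.80, and DPP6 at -2.93 and CACNB3 at 1.57 mark the ends of the range.

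Among potassium channel genes the widest difference was that of DPP6, a transmembrane protein that brings the pore subunits of the transient outward current to the membrane and speeds their gating. DPP6 had -5.24, -0.28 and -2.09 in affected 1 to 3, against 0.45, 0.28 and 0.45 in control 1 to 3. The groups did not overlap, but affected 2 was close to the controls while affected 1 and affected 3 were far below. The difference was -2.93 (SE 1.26, limma adjusted p = 0.322), a 7.65-fold difference from a single probe set. It was -1.58 without affected 1 and -0.68 for affected 2 alone against the 3 controls.

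KCNIP2, the calcium-binding auxiliary subunit of the same current, whose transcript forms a steep gradient across the wall of the canine ventricle, varied more within groups than between them. Its gene values were 0.66, 2.40 and -1.25 in affected 1 to 3, against -2.02, 0.06 and 0.05 in control 1 to 3. Affected 2 was the highest array and control 1 the lowest, affected 3 lay below 2 of the controls, and the groups overlapped. The difference of 1.24 (SE 1.10, limma adjusted p = 0.446) was 0.34 without affected 2, 2.16 without affected 3 and 0.55 without control 1. Of its 3 probe sets, those with differences of 1.79 and 1.72 gave that order of arrays. In the third, at 0.20, affected 3 was lowest and control 3 stood above control 1 and control 2. The labels do not give the layer of the wall that was sampled.

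The pore genes of the transient outward current lay closer to the tag profile than DPP6 and KCNIP2 did. KCND2, the main pore gene of this current in rodent hearts, had -0.06, -0.04 and -0.01 in affected 1 to 3, against 0.08, 0.01 and 0.18 in control 1 to 3. It followed the tags and differed by -0.12, or -0.08 without control 3. KCND3, the main one in dog and human hearts, had -0.29, -0.03 and -0.03 against 0.13, 0.02 and 0.20. The difference of KCND3 was -0.23 (SE 0.10, limma adjusted p = 0.322) and -0.14 without affected 1. Its 4 probe sets differed by -0.50, -0.29, -0.07 and -0.06. The widest of these rested on affected 1, which had -0.89 where affected 2 and affected 3 had -0.02 and -0.05.

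**Figure D3:**
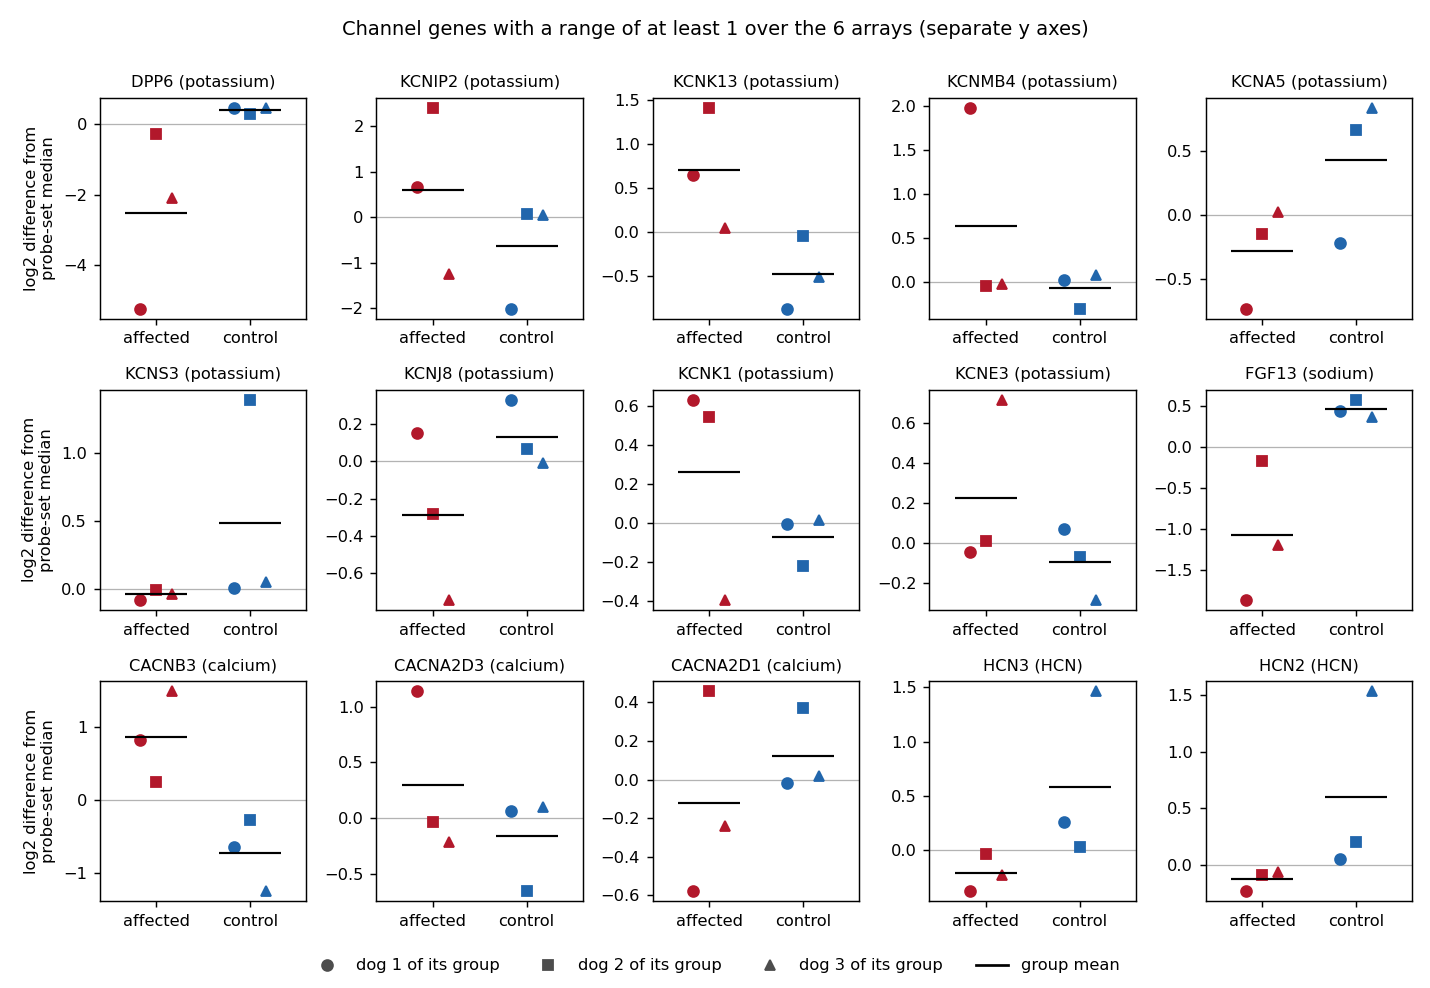
Values of the 15 channel genes whose range over the 6 arrays was at least 1 (as it was for 18.1% of all genes), as the log2 difference from the probe-set median (y axis, separate scale for each gene), for affected (left) and control (right) dogs with marker shape for the dog's number and a bar for the group mean. DPP6 and FGF13 are low in affected 1 and affected 3, KCNIP2 is scattered in both groups, and HCN2 and HCN3 are high in control 3 alone.

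Delayed rectifier genes, which end the action potential, differed among themselves in direction. KCNA5, the pore of the ultrarapid current best known from atria, had -0.73, -0.14 and 0.02 in affected 1 to 3, against -0.22, 0.66 and 0.83 in control 1 to 3. The groups overlapped through control 1, and a lack of overlap was seen in 1 of the 2 probe sets. The difference was -0.71 (SE 0.35, limma adjusted p = 0.322), with -0.78 and -0.64 in the probe sets, and -1.03 without control 1. KCNH2, the pore of the rapid delayed rectifier, ran the other way with 0.65, -0.03 and 0.82 in affected 1 to 3, against -0.07, 0.00 and -0.01 in control 1 to 3. High values were those of affected 1 and affected 3, while affected 2 lay among the controls. The difference of 0.51 (SE 0.23, limma adjusted p = 0.322) came from 1 of its 2 probe sets, at 1.06 against -0.04 in the other, and was 0.00 for affected 2 alone against the controls. Leaving out affected 3 gave 0.34, and leaving out affected 2 gave 0.76.

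KCNQ1, the pore of the slow delayed rectifier, differed by 0.08 (SE 0.12, limma adjusted p = 0.632), with 0.36 on affected 1 and -0.03 and -0.02 on affected 2 and affected 3, against 0.02, 0.00 and 0.04 in the controls. This difference was -0.04 without affected 1. KCNE2, a single-pass partner of several potassium pores, had 7 probe sets, all lower in affected hearts by between -0.30 and -0.08. Its difference was -0.19 (SE 0.07, limma unadjusted p = 0.0349, adjusted p = 0.322), and it followed the tags. KCNE1 and KCNA4 were not analysed here. Of the 30 pore genes of the voltage-gated family 19 followed the tags, and of the 13 auxiliary and regulatory genes 10 did.

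Inward rectifier genes, which set the resting potential, were near 0 for the main cardiac pore. KCNJ2, that pore, had -0.10, 0.05 and -0.05 in affected 1 to 3, against 0.02, -0.02 and 0.13 in control 1 to 3, and the groups overlapped. KCNJ12, of the same current, differed by -0.14, or -0.07 without control 3, and followed the tags. KCNJ4, of this current too, had -0.06, 0.58 and 0.72 in affected 1 to 3, against 0.00, -0.03 and 0.00 in control 1 to 3, so affected 2 and affected 3 were high and affected 1 was not. The difference was 0.43 (SE 0.21, limma adjusted p = 0.322), with 0.66 without affected 1 and 0.27 without affected 3.

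KCNJ8 and KCNJ11, the pores of ATP-sensitive channels of vessels and of ventricular muscle, differed in how they varied. KCNJ8 had 0.15, -0.28 and -0.74 in affected 1 to 3, against 0.33, 0.07 and -0.01 in control 1 to 3, with affected 1 above 2 of the controls. Its difference was -0.42 (SE 0.25, limma adjusted p = 0.323) with -0.19 without affected 3 and -0.64 without affected 1, while KCNJ11 differed by -0.07 and followed the tags. Markers of smooth muscle and pericytes, cells that KCNJ8 is known from, had list medians over 9 genes of 0.00, -0.04 and -0.05 for affected 1 to 3, against 0.08, -0.16 and 0.05 for control 1 to 3. None of the 9 was at an unadjusted p under 0.05 in limma, and their part in the KCNJ8 value was not tested. In bulk tissue fewer cells of a type and less RNA per cell cannot be told apart. The acetylcholine-gated pores KCNJ3 and KCNJ5, mainly atrial, differed by -0.12 and 0.09. KCNJ3 was at -0.03 without control 3, and KCNJ5 at 0.00 without affected 1, -0.01 without control 2 and 0.17 without control 3. In all, 7 of 12 inward rectifier genes followed the tags.

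Of the tandem-pore channels, which carry background potassium current, KCNK13 lay higher in affected hearts. It had 0.64, 1.41 and 0.05 in affected 1 to 3, against -0.88, -0.05 and -0.52 in control 1 to 3, in its only probe set. The groups did not overlap, though affected 3 and control 2 were the middle pair and differed by little. The difference was 1.18 (SE 0.40, limma unadjusted p = 0.0309, adjusted p = 0.322), and 0.82 without affected 2 and 1.50 without affected 3. KCNK13 is known as a channel of microglia, the macrophages of the brain. Macrophage and monocyte markers in these hearts had list medians of 2.04, -0.03 and -0.01 on affected 1 to 3 and 0.70, -0.42 and -0.37 on control 1 to 3. By these medians over 9 markers affected 1 was highest and control 1 next. KCNK13 was highest in affected 2 and lowest in control 1. Not every marker had the order of the medians. HVCN1 was lowest in control 1 too, at -1.16, and KCNA3, itself a channel gene, was highest in control 3, at 0.21. The part of these markers in the KCNK13 value was not tested. Of the 13 tandem-pore genes 11 followed the tags, KCNK3 was not analysed here, and KCNK1, chosen here after its values were seen, was at 0.63, 0.54 and -0.39 in the affected dogs against 0.00, -0.22 and 0.01 in the controls.

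Of the 12 calcium- and sodium-activated potassium channel genes 9 followed the tags. Among them was KCNN2, a small-conductance pore, which differed by -0.12, or -0.06 without control 3. Several channel genes were set apart by 1 array, and these were named after their values were seen. KCNMB4, a beta subunit of the large-conductance channel, had 1.98 on affected 1 against -0.30 to 0.08 elsewhere, and its difference of 0.70 was 0.03 without affected 1. KCNS3, a silent modifying subunit, had 1.39 on control 2 against -0.08 to 0.05 elsewhere, and its difference of -0.52 was -0.07 without control 2. Affected 1 was also the array with the highest macrophage marker median, 2.04, whose part in the KCNMB4 value was not tested.

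In the sodium class FGF13 differed most. It encodes an intracellular FGF homologous factor that binds the tail of sodium channel pores and shifts their inactivation. FGF13 had -1.87, -0.17 and -1.19 in affected 1 to 3, against 0.44, 0.58 and 0.37 in control 1 to 3. As for DPP6, affected 1 and affected 3 were far below the controls and affected 2 was nearest to them, and the groups did not overlap. The difference was -1.54 (SE 0.43, limma unadjusted p = 0.0149, adjusted p = 0.322), or 2.91-fold, and it was -1.15 without affected 1 and -0.64 for affected 2 alone against the controls. Its 3 probe sets differed by -2.48 (SE 0.75), -1.72 (SE 0.64) and -0.42 (SE 0.19), and the last of these followed the tags at a correlation of 0.99.

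DPP6 and FGF13 were low on the arrays on which the spiked transcripts stood apart, affected 1 and affected 3. Most fibroblast markers were high on these arrays, with list medians of 1.16, 0.11 and 0.67 on affected 1 to 3. On control 1 to 3 the medians were -0.33, -0.15 and -1.61. At an unadjusted p under 0.05 in limma 6 of the 8 were higher, where 4.88% of all genes were. Of the rest, COL1A2 differed by 1.67, and PDGFRA ran the other way at -0.69, with 2.03 on control 1. Ventricular muscle markers had list medians over 7 genes of 0.09, 0.01 and 0.07 for affected 1 to 3, against 0.01, -0.06 and -0.21 for control 1 to 3. The differences of the 7 lay between -0.18 (IRX4) and 0.25 (ACTC1). Conduction system markers, of which 4 of 6 followed the tags, had medians of -0.03, -0.04 and -0.01 for affected 1 to 3, against 0.05, 0.02 and 0.20 for control 1 to 3. Neuron and Schwann cell markers had medians over 7 genes of -0.01, -0.14 and -0.01 for affected 1 to 3, against 0.07, 0.01 and 0.15 for control 1 to 3. Behind these medians single markers differed widely. Differences of conduction system markers ran from -2.58 (IRX3, without overlap) to -0.06 (HCN4). Those of neuron and Schwann cell markers ran from -2.52 (SNAP25) to 2.91 (UCHL1), both in overlapping groups. The part of the spiked transcripts, RNA integrity and the cell types in the values of DPP6 and FGF13 was not tested.

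Of the other 9 sodium channel genes 8 followed the tags. The beta subunit SCN4B was not analysed here. SCN2B, a beta subunit that is disulfide-linked to the pore, had -0.06, -0.08 and -0.03 in affected 1 to 3, against 0.15, 0.03 and 0.35 in control 1 to 3. These values are a scaled form of the tag profile, with control 3 highest, and the difference was -0.23 (SE 0.09, limma adjusted p = 0.322), or -0.14 without control 3. SCN3B differed by -0.08 and followed the tags too. The neuronal pores SCN2A, SCN3A and SCN9A differed by -0.41, -0.33 and -0.25, with their highest values on control 3, at 0.74, 0.52 and 0.46. Without control 3 these differences were -0.21 for SCN2A, -0.20 for SCN3A and -0.13 for SCN9A. Only SCN10A, a pore of sensory neurons, departed from the tags besides FGF13, at 0.30 on affected 2 and -0.22 on control 1, and differed by 0.14 in overlapping groups, or 0.04 without affected 2 and 0.06 without control 1.

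In the calcium class CACNB3 differed most, in both of its probe sets. It encodes a beta subunit that brings the pore to the membrane, and CACNB2 is its main counterpart in heart muscle. CACNB3 had 0.82, 0.25 and 1.49 in affected 1 to 3, against -0.64, -0.27 and -1.25 in control 1 to 3. The groups did not overlap, with affected 2 and control 2 closest to each other. The difference was 1.57 (SE 0.40, limma unadjusted p = 0.00995, adjusted p = 0.322), or 2.98-fold, the smallest p of all 115 channel genes. Its probe sets differed by 1.84 (SE 0.46) and 1.31 (SE 0.40). It was 1.26 without affected 3, 1.31 without control 3 and 0.97 for affected 2 alone against the controls. The fibroblast marker medians had a like order over the arrays, with affected 1 and affected 3 high and control 3 lowest, and their part in the CACNB3 value was not tested.

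CACNB2 had 0.06, 0.18 and -0.19 in affected 1 to 3, against -0.25, 0.03 and 0.18 in control 1 to 3, and differed by 0.03 (SE 0.15, limma adjusted p = 0.908). Its groups overlapped, and the sign turned to -0.09 without control 1, -0.05 without affected 2 and -0.01 with age as a covariate. CACNA1C, the pore of the cardiac L-type current, had -0.06, 0.02 and -0.03 in affected 1 to 3, against 0.05, -0.01 and 0.21 in control 1 to 3. It differed by -0.11, or -0.04 without control 3, and followed the tags, but of its 3 probe sets, at -0.29, -0.03 and 0.00, the first alone did, with 0.51 on control 3. CACNA2D1, the alpha2delta subunit of this channel, had -0.58, 0.46 and -0.24 in affected 1 to 3, against -0.02, 0.37 and 0.02 in control 1 to 3. Affected 2 was high with control 2 and affected 1 was lowest, and the difference was -0.24 (SE 0.29). It was -0.01 without affected 1, -0.53 without affected 2, -0.12 without control 2 and 0.34 for affected 2 alone against the controls.

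CACNA1S, the L-type pore of skeletal muscle, was split between its probe sets. One of 4 had 0.87, 0.98 and 0.40 in affected 1 to 3, against -0.40, -0.52 and -0.45 in control 1 to 3. It differed by 1.21 (SE 0.16, limma unadjusted p = 0.000651, adjusted p = 0.296 over all probe sets), with the smallest p of the 189 channel probe sets. The other 3 differed by -0.21, -0.07 and 0.03 with overlapping groups, and the gene's mean differed by 0.24 (SE 0.12, limma adjusted p = 0.322), or 0.12 without affected 2. Of the 8 skeletal muscle markers, CACNA1S among them, 6 followed the tags and lay lower in affected hearts. The other, ACTA1, skeletal alpha-actin, which heart muscle also expresses, had 0.10, 0.02 and 0.16 in affected 1 to 3, against -0.04, -0.03 and -0.21 in control 1 to 3. It differed by 0.18 without overlap (limma adjusted p = 0.322), in the direction of that CACNA1S probe set. The part of skeletal muscle RNA in the CACNA1S value was not tested. CACNA2D3 was split too, at 1.32, 0.19 and -0.12, where the first rested on 2.72 in affected 1 and -1.98 in control 2.

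**Figure D4:**
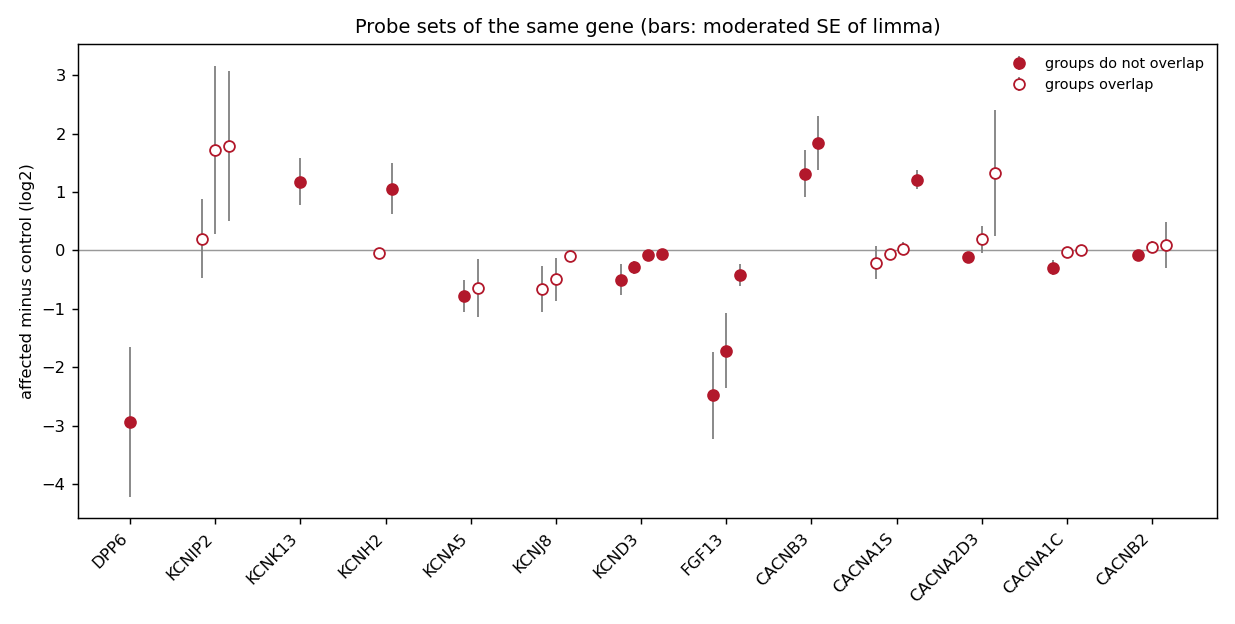
Affected minus control on the log2 scale (y axis) with limma's moderated SE for each probe set of 13 channel genes (x axis). Filled points are probe sets whose groups did not overlap. Both CACNB3 probe sets lie above 0 and all 3 of FGF13 below, while CACNA1S and KCNH2 have 1 probe set apart from the rest.

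The pacemaker-type pores of sinus node cells, CACNA1D, CACNA1G and CACNA1H, differed by -0.24, -0.10 and -0.06. CACNA1D and CACNA1H followed the tags and differed by -0.14 and -0.03 without control 3, and CACNA1G had 0.13, 0.01 and 0.10 in the controls against -0.02 in each affected dog. The neuronal pore CACNA1B differed by -0.18 (SE 0.07, limma unadjusted p = 0.0393, adjusted p = 0.322) and followed the tags. All 7 gamma subunit genes, most of which are known as partners of glutamate receptors in brain, followed the tags, with differences from -0.16 to -0.07.

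HCN genes encode the pores of the pacemaker current, which is small in working ventricle. HCN2 had -0.23, -0.08 and -0.06 in affected 1 to 3, against 0.06, 0.20 and 1.53 in control 1 to 3. HCN3 had -0.38, -0.03 and -0.23, against 0.26, 0.03 and 1.47. Both were high on control 3 alone, and the difference was -0.72 for HCN2 (SE 0.41) and -0.80 for HCN3 (SE 0.40), each at a limma adjusted p of 0.322. Without control 3 it was -0.25 for HCN2 and -0.35 for HCN3. HCN4, the main sinus node gene, differed by -0.06, with the tags, and turned to 0.02 after quantile normalization and after median centring.

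Genes that act with these channels were read from a list of 59, of which 52 were measured. At an unadjusted limma p under 0.05 there were 8 higher and 3 lower among them, where 4.88% and 5.64% of all genes were, and the median difference was -0.01 beside -0.07 for all genes; 0 passed after adjustment (limma adjusted p = 0.322 for each of the 11). The scaffold genes CAV3 and SNTB1 differed by 0.64 and 0.25, the calmodulins CALM2 and CALM3 by 0.56 and 0.66, and the kinases CAMK2G and SGK1 by 0.39 and 0.35. SLMAP, a tail-anchored membrane protein linked to sodium channel trafficking, differed by 0.61, and the transcription factor HAND2 by 0.59. Probe sets of the same gene were not alike, at 1.10, 0.92 and -0.05 for CALM3 and 0.74, 0.18 and 0.13 for SGK1. Those of SLMAP ran from 0.00 to 1.23, and the CALM2 groups overlapped.

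The lower ones were IRX5, TBX5 and FGF14. IRX5, a homeobox factor that represses Kcnd2 across the mouse ventricular wall, had -0.72, -0.58 and -1.48 in affected 1 to 3, against 0.61, 0.59 and 1.11 in control 1 to 3. All 3 affected dogs, affected 2 included, were below all controls, with a difference of -1.70 (SE 0.29) and both probe sets lower, at -2.18 and -1.21. TBX5 differed by -0.57 and FGF14, a relative of FGF13, by -0.20. DPP10, the closest relative of DPP6, was singled out after its values were seen, and had -0.18, 2.92 and -0.15 in affected 1 to 3, against 0.43, -0.12 and 0.60 in control 1 to 3, so its one high array was affected 2, where DPP6 was nearest to the controls.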

How the data were processed

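RNA of frozen left ventricle was hybridised to Affymetrix canine arrays after a standard biotin labelling, 1 array per dog, per the labels' protocols. The deposited values were used as log2 values, a scale read from their range and from GCRMA being named. Per the submitters' processing notes GCRMA and MAS5 were used, and which step each served is not given in the sources used here. Every probe set of the deposited table had a median of 0 over the 6 arrays (largest absolute median 5e-07). Genome build and probe sequences are not given in the sources used here.

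The 175 control probe sets were left out, which left 42860 probe sets, unfiltered. Of these 29254 had 1 symbol in the array annotation, 439 had several and 13167 were not listed, and only the first were named. Of the 115 channel genes 110 have the same symbol under their Entrez identifier in the RefSeq table of the dog genome, and the other 5 were not matched.

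Gene values (means of probe sets) were fitted for all 15115 genes with limma 3.58.1 in R 4.3.3 with group as the single factor (functions lmFit and eBayes, no variance trend, two-sided, 4 residual and 1.28 prior degrees of freedom) and adjusted by Benjamini-Hochberg over all genes. Single probe sets were fitted alike, and the fits were tested on simulated data. The labels call the samples biological replicates, each array was taken as 1 dog, and 3 arrays per group limit the precision. No test was run on the channel list or its classes. The members and lists were chosen with earlier results of these data known.

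The text names the channel genes at an unadjusted p under 0.05, those that differed by at least 1 on the log2 scale, the 27 measured of 33 genes of the ventricular action potential, genes with a probe set of at least 1 beside another under 0.25, and channel partners at an unadjusted p under 0.05. Others were named after their values were seen, as were other members of a described class. Alternatives were quantile normalization, median centring, a filter on range, the probe set of largest range, sex, age, a replicate block, array weights, robust variance estimation and leaving out each array. Comparing affected 2 alone with the controls was added after the values were seen.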

Additional observations from a re-analysis of the deposited data

How the results depend on the processing

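No named channel gene passed the adjusted threshold in any alternative that could be fitted (smallest limma adjusted p 0.162), and 24 of the 32 named by rule kept their direction in all of them. Over all genes 0 were called as reported and 1 without the 40% of probe sets of smallest range, where 6 probe sets were called. As reported 1 probe set was called, none of a channel gene. The count was 0 after quantile normalization, with age, with the replicate block and for affected 2 alone, and 0 to 5 with 1 array left out. Channel genes at an unadjusted p under 0.05 numbered 2 higher and 3 lower as reported. They were 1 and 12 after quantile normalization (6.09% and 6.96% of all genes), 1 and 37 with age (7.43% and 19.4%) and 4 higher without the probe sets of smallest range (6.6%), where 52 channel genes remained measured. Lower ones were 5 with the probe set of largest range (4.12%) and 7 with sex (5.78%), and 5 were higher for affected 2 alone (2.9%). With 1 array left out there were 1 to 3 higher and 1 to 41 lower, the 41 being without control 2, where 24% of all genes were lower at that level. The labels do not say that equal replicate numbers pair dogs. Deviations from the group mean correlated at 0.25, 0.16 and 0.06 between same-numbered arrays. With controls of another number the affected arrays reached at most -0.09, 0.03 and -0.02, and the reason was not tested. The replicate block gave 2 higher and 4 lower channel genes (5.54% and 4.44% of all genes).

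Class medians after quantile normalization were -0.017 for potassium and -0.024 for calcium genes, and -0.025 and -0.027 after median centring. Without the probe sets of smallest range they were -0.19 for potassium, -0.35 for sodium and -0.22 for calcium genes, over 29, 7 and 14 genes, while the median of all genes was 0.01. Directions turned where values were small, and also for CACNA2D1, which was at -0.24 as reported. After quantile normalization CACNA1H was 0.021, HCN4 0.024 and KCNJ11 0.0075, and after median centring CACNA1H was 0.016 and HCN4 0.016. CACNB2 was -0.013 with age and between -0.090 (without control 1) and 0.13 (without affected 3) with 1 array left out, being -0.054 without affected 2. KCNQ1 lay between -0.044 (without affected 1) and 0.15 (without affected 2) and was -0.049 for affected 2 alone. KCNJ5 lay between -0.0096 (without control 2) and 0.17 (without control 3) and was -0.0058 for affected 2 alone, where CACNA2D1 was 0.34 and KCNJ2 0.0090. The causes were not tested. Where affected 2 stood alone it was assumed to vary like the controls. Array weights gave no usable fit: their estimate did not converge, put a weight of 108 on control 1 against 0.0995 to 1.02 on the others, and called 8896 of 15115 genes.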
